A study of Mus musculus with 3 samples.

Results

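The genes described here are transcription factors that act at the caudal end of the embryo while the body axis grows: Cdx1, Cdx2 and Cdx4 of the caudal homeobox family, the even-skipped homeobox gene Evx1 and the zinc finger gene Sp5. They were chosen by name, with earlier results of these data known. Every probe set was taken whose only gene symbol in the platform annotation was one of 6 listed regulators. This gave 5 genes and 6 probe sets of 45037 probe sets in all, and all 6 were bright enough to be tested. No probe set was annotated to the listed regulator T (brachyury), which was not analysed here.

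The study hybridised 3 Affymetrix arrays of 1 channel each with RNA of whole mouse embryos taken at 8.5 dpc (days post coitum). The mutant group was 2 arrays, replicate 1 from 8 and replicate 2 from 6 pooled litter mates of mixed sex. These embryos were Dnmt3l-/+, conceived by Dnmt3l-/- dams mated with wildtype sires, on a C57Bl/6J background. A pool of 6 normal C57Bl/6J litter mates, again of mixed sex, gave the 1 array of the normal group. Dnmt3l assists the enzymes that place new DNA methylation, and oocytes that lack it do not set maternal methylation imprints, so the comparison asks what differs in embryos that inherit no such marks. The mutant embryos carried a wildtype paternal allele of Dnmt3l. Each array averaged a pool, so no value belongs to 1 embryo, and fewer cells of a type could not be told apart from less RNA per cell.

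The tailbud, and the primitive streak before it, hold progenitors that add spinal cord and somites as the embryo lengthens. Wnt and FGF signals maintain these progenitors, and Cdx proteins act downstream of both to keep the tailbud growing and to switch on central and posterior Hox genes. Sp5 is a direct target of Wnt signalling through TCF/LEF factors and works together with Sp8. Evx1 is transcribed in the posterior streak and the tailbud. Cdx2 also serves in trophoblast and, later, in the hindgut.

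The promoters of Sp5 and Cdx4 are shown because these members read at least 2-fold lower in both mutant pools. Each stretch covers the 250 bases before and the first 50 bases after the RefSeq start (build GRCm38.p6), on the gene's own strand, with motif matches in capitals. The motifs searched on both strands were CTTTGA and CTTTGT (core letters bound by TCF/LEF), TTTATG (CDX) and GGGCGG (GC box).
Sp5, chr2:70474673-70474972, plus strand: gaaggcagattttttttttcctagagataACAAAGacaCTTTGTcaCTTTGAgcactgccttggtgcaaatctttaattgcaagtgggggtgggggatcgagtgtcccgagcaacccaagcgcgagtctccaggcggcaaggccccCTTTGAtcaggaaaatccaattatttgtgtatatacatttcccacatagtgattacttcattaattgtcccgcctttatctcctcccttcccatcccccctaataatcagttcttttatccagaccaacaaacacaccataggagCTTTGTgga
Cdx4, chrX:103321148-103321447, plus strand: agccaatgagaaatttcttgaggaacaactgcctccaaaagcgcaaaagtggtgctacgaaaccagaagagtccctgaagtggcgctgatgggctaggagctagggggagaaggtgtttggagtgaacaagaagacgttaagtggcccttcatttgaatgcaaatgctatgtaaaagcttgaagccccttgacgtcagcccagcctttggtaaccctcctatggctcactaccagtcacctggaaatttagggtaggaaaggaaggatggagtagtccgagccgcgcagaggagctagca
The Sp5 stretch held 5 matches to the TCF/LEF letters, 2 of CTTTGA and 3 of CTTTGT, none of which overlapped. Of 32851 promoter stretches of this length, 31.2% held at least 1 of these 2 motifs and 0.0365% held 5 or more matches. The first 3 matches in Sp5 lay 221, 212 and 204 bases before the start, another lay 104 bases before it, and the last began at base 42 after it. The Cdx4 stretch held no match to any of the 4 motifs, and neither did those of Cdx2 and Evx1. The promoter of Cdx1 was not analysed here. TTTATG occurred in 11.9% and GGGCGG in 35.7% of all promoters. CpG dinucleotides, the sites that DNA methylation acts on, numbered 6 in the Sp5 stretch and 8 in that of Cdx4, close to the median of 7 over all promoters. The stretches of Cdx2 and Evx1 held 18 and 12. Methylation was not measured on these arrays, and a match is a run of letters, not a shown binding site.

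Every member read lower in both mutant pools, in 2 patterns, although Cdx2 in replicate 1 was near 0 (log2 ratio -0.08) and turned to 0.04 with median centring of the arrays. Cdx4 and Sp5 were lower by more than 2-fold in both pools. Cdx1, Cdx2 and Evx1 were close to or moderately below the normal pool in replicate 1 and far below it in replicate 2. No member passed limma's moderated test over all probe sets kept (adjusted p under 0.05), so none is called changed. Log2 ratios below compare log2(signal + 31.92) in a mutant pool with the normal pool, where 31.92 is the median over arrays of the 20th percentile of signal. Adding 31.92 draws the log2 ratios of dim probe sets toward 0, and the size of a difference near background is uncertain. The normal array had no replicate and is shared by every ratio, and the test took it to vary as the mutant arrays do.

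**Figure D1:**
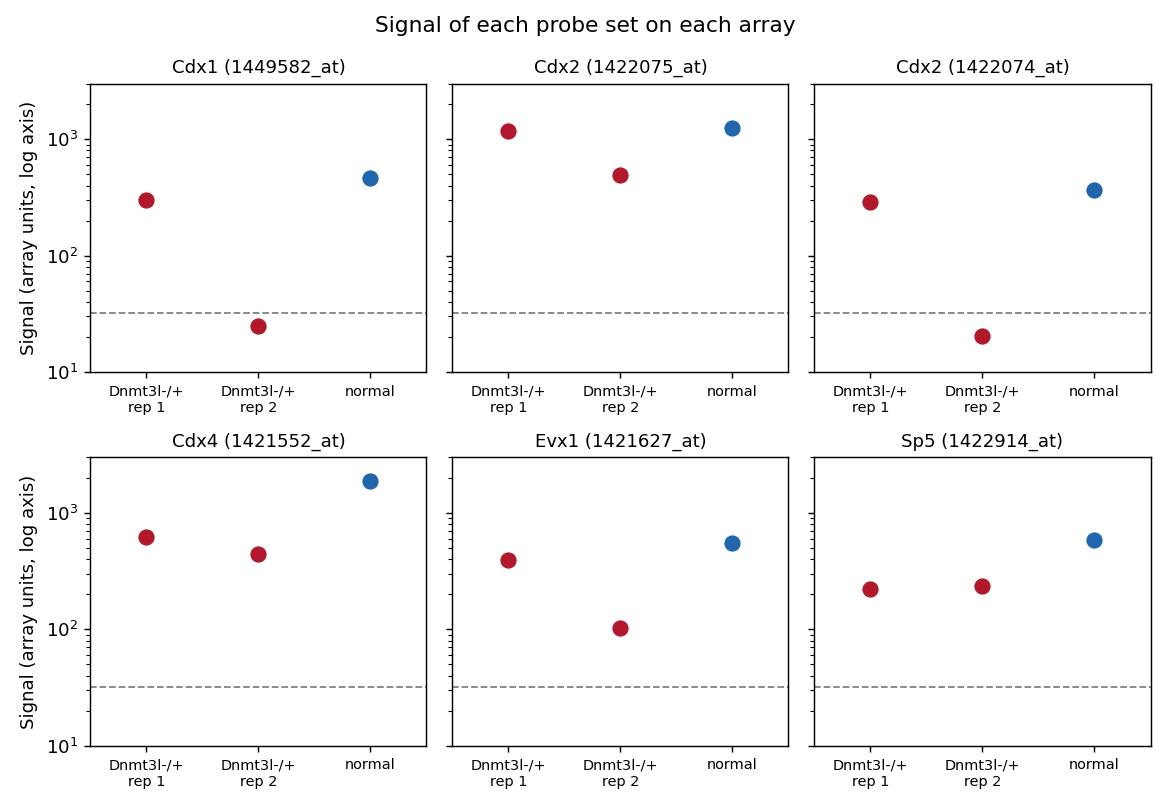
Signal (array units, log axis) of the 6 probe sets on both Dnmt3l-/+ arrays (red) and the normal array (blue), with 1 point per array and a dashed line at 31.92, the pseudocount. Both red points of Cdx4 and Sp5 lie well below the blue point, while Cdx1 and the dimmer Cdx2 probe set drop under the dashed line only on the array of replicate 2.

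Cdx4 gave the clearest difference. Its probe set (1421552_at) read 616 and 444 in the Dnmt3l-/+ pools, against 1880 in the normal pool. Both mutant values lay below the normal one, and they lay closer to each other than to it. The mean was 529.8 ± 122 (SD, n = 2) in mutants, 0.282 of the normal signal. The log2 ratio was -1.78 (SE 0.28, 95% interval -2.50 to -1.07), with an adjusted p of 0.0896 by limma and an unadjusted p of 0.00106. When probe sets were first averaged per gene and the fit was run on genes, the same ratio had a limma adjusted p of 0.0246 (unadjusted p = 0.000341), and over all settings the adjusted p ranged from 0.0246 to 0.259. Cdx4 lies on the X chromosome, and the labels give mixed sexes for each pool. Xist, the RNA of the inactive X chromosome, read 2736 and 3213 in the mutants and 1296 in the normal pool. The Y-linked gene Eif2s3y read 351 and 544 in the mutants and 752 in the normal pool. Of the other Y-linked genes measured, Kdm5d read 246 and 378 in the mutants against 369 in the normal pool, and Uty 266 and 436 in the mutants against 390 in the normal pool. Their log2 ratios thus differed in sign between the mutant pools. The part of the pools' sex makeup in the Cdx4 value was not tested.

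Sp5 gave the most even pair of mutant values. The probe set (1422914_at) read 224 and 235 in the Dnmt3l-/+ pools, against 580 in the normal pool. The mutant pools differed from each other by far less than from the normal one, with log2 ratios of -1.26 in replicate 1 and -1.20 in replicate 2. The combined log2 ratio was -1.23 (SE 0.28, 95% interval -1.92 to -0.54), with a limma adjusted p of 0.173 and an unadjusted p of 0.00530. Its mean signal was 229.5 ± 7.61 (SD, n = 2) in mutants, 0.395 of the normal signal.

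Cdx1, a caudal gene that responds to Wnt and retinoic acid, differed widely between the mutant pools. The probe set (1449582_at) read 298 in Dnmt3l-/+ replicate 1 and 24.8 in replicate 2, against 466 in the normal pool. Replicate 2 thus lay below the 20th percentile of its own array (33.4), where signals are hard to tell from background. The log2 ratios were -0.59 and -3.14, which combined to -1.86 with an SE of 0.99 (limma adjusted p = 0.490). The 95% interval ran from -4.33 to 0.60. Between the mutant pools the difference, replicate 2 minus replicate 1, was -2.54 on the log2 scale. Its size depends on the pseudocount, since the lower signal lay under it.

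Cdx2, which marks the tailbud, hindgut and trophoblast, was measured by a pair of probe sets that showed the same order of arrays. The brighter one (1422075_at) read 1184 and 494 in the Dnmt3l-/+ pools, against 1252 in the normal pool. The dimmer one (1422074_at) read 288 and 20.4 in the Dnmt3l-/+ pools, against 366 in the normal pool. On both, replicate 1 was near the normal pool and replicate 2 well below it. The log2 ratios in replicate 2 were -1.29 on the brighter and -2.93 on the dimmer probe set, so the size of the difference depended on the probe set. In replicate 1 they were -0.08 and -0.32. The combined ratio of the brighter probe set was -0.68 (SE 0.50, limma adjusted p = 0.611). Median centring raised the median ratio of all genes kept in replicate 1 to 0.08, against -0.03 as deposited, and so set the ratio of Cdx2 there at 0.04.

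Evx1 followed the same order. Its probe set (1421627_at) read 397 and 103 in the Dnmt3l-/+ pools, against 553 in the normal pool. Replicate 1 was moderately and replicate 2 strongly below the normal pool, with log2 ratios of -0.45 and -2.11. They combined to -1.28 (SE 0.68, limma adjusted p = 0.488, 95% interval -2.97 to 0.41). The antisense transcript Evx1os, which overlaps the start of Evx1 and was looked up for that position, read 371 and 179 in the Dnmt3l-/+ pools, against 403 in the normal pool. Its log2 ratios were -0.11 and -1.04, so replicate 2 was again the lower mutant pool, and it did not pass limma either (adjusted p = 0.625). The labelled cRNA comes from 1 strand, but whether either probe set reads the overlap was not analysed here.

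**Figure D2:**
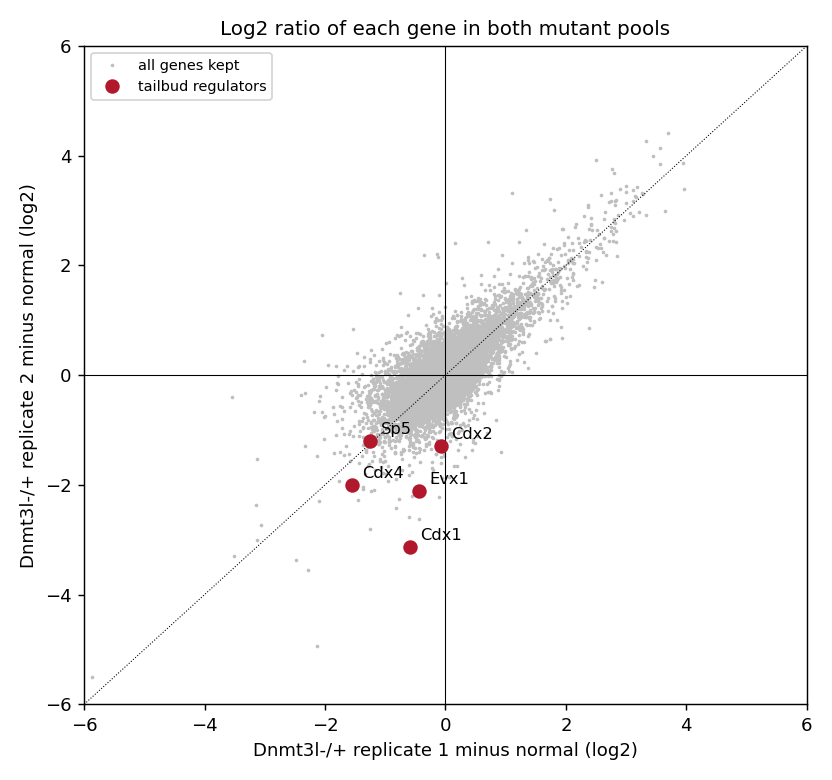
Log2 ratio to the normal pool in Dnmt3l-/+ replicate 1 (x axis) against replicate 2 (y axis) for the 12913 genes kept (grey) and the 5 tailbud regulators (red), with a dotted line where both ratios are equal. Sp5 lies on the line, Cdx4 slightly below it, and Cdx1, Evx1 and Cdx2 well below it.

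Over the 5 genes, at their brightest probe sets, 5 read lower in both mutant pools (4 with median centring), against 39.1% of the 12913 genes kept. At least 2-fold lower in both were 2 genes, Cdx4 and Sp5, against 0.635% of all genes kept. In replicate 2 alone 5 of the 5 were at least 2-fold below the normal pool, against 1.93% of all genes. In replicate 1 alone 2 were, against 2.4% of all genes. The median log2 ratio of the 5 genes was -0.59 in replicate 1 and -2.01 in replicate 2, while that of all genes kept was -0.03 and 0.01. Read directly between the mutant pools, 3 of the 5 (Cdx1, Evx1 and Cdx2) were at least 2-fold lower in replicate 2 than in replicate 1, against 0.736% of all genes kept. That difference is between 1 pool and another and has no replicate. The members were listed with earlier results of these data known, so these shares describe them and test nothing.

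None of the 5 genes passed limma with adjustment over all probe sets, where 0.031% of the genes kept were called lower and 0.728% higher in mutants. At an unadjusted p under 0.05, 2 members (Cdx4 and Sp5) were lower, against 4.24% of genes. None was higher, against 8.01%. Both ratios of a gene share the normal array, so being lower in both pools is not a pair of independent observations.

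**Figure D3:**
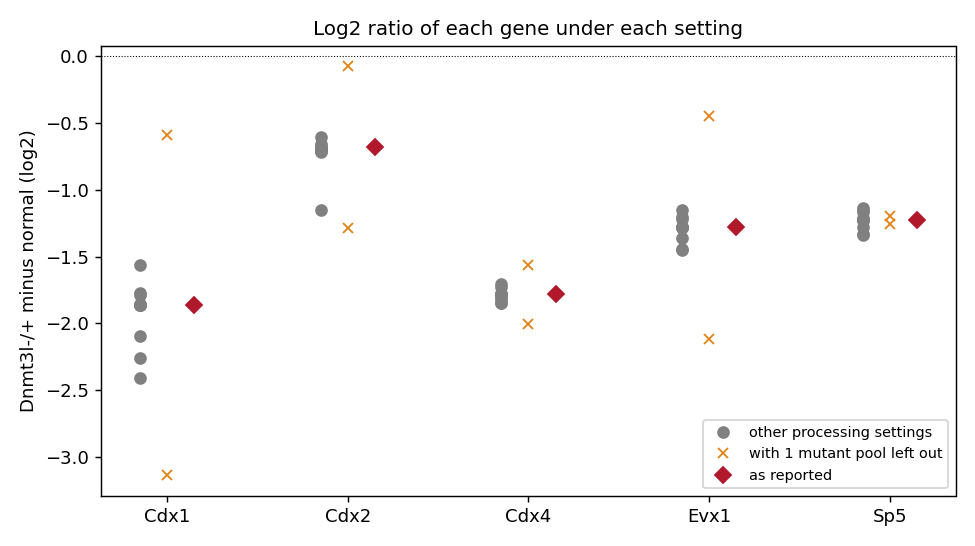
Log2 ratio of Dnmt3l-/+ to normal (y axis) for each of the 5 genes as reported (diamonds), under the other processing settings (grey circles) and with 1 mutant pool left out (crosses). Cdx4 and Sp5 stay within -2.01 and -1.14 throughout, while the ratios of Cdx1, Cdx2 and Evx1 depend on which mutant pool is used.

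Genes that work beside these regulators were read from lists drawn up from general knowledge, with the members left out. Earlier results of these data were known by then, so the counts of each list are descriptions and not tests. Of 17 tailbud progenitor and presomitic mesoderm genes measured, 16 were kept, 13 read lower in both mutant pools (12 under each other scaling of the arrays) and Grhl3 higher, with a median log2 ratio of -0.65 (-0.61 in replicate 1 and -0.71 in replicate 2). None passed limma over all probe sets, and 7 were lower at an unadjusted p under 0.05. Over all genes kept, 39.1% read lower in both pools and 4.24% were lower at that unadjusted p. These shares also stand beside the counts of lower genes in the lists below. Hes7, an oscillating repressor of the segmentation clock, read 225 and 54.8 in the Dnmt3l-/+ pools, against 576 in the normal pool (log2 ratio -2.03, SE 0.65). Tbx6, which commits progenitors to paraxial mesoderm, read 320 and 281 in the mutants and 684 in the normal pool (-1.11, SE 0.27). Foxb1 (-1.11) and Greb1 (-0.69) read lower too. Msgn1 (0.04 in replicate 1 and -0.36 in replicate 2) and Dll1 (-0.60 and 0.16) differed in sign between the mutant pools. Hes7 was the 1 gene of this list, of 16, that was at least 2-fold lower in replicate 2 than in replicate 1, and with median centring 2 were.

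Of 14 Wnt ligands and Wnt targets kept, of 17 measured, 12 read lower in both mutant pools and Wnt11 higher, with a median log2 ratio of -0.44. None passed limma, and 4 were lower at an unadjusted p under 0.05. Sp8, the partner of Sp5, read 422 and 307 in the Dnmt3l-/+ pools, against 817 in the normal pool (-1.11, SE 0.30). The noncanonical ligand gene Wnt5b (-1.11), the TCF/LEF factor gene Lef1 (-0.71) and Ccnd1 (-0.59), a cell cycle gene, read lower too. Of these Wnt genes, 0 of the 14 were at least 2-fold lower in replicate 2 than in replicate 1. The ligand gene Wnt3a, which maintains the tailbud, read 327 and 218 in the mutants and 414 in the normal pool (-0.57, SE 0.34).

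All 13 FGF ligands and response genes measured were kept, 9 read lower in both mutant pools (7 with median centring) and Spry1 higher, with a median of -0.40. None passed limma, and 4 were lower at an unadjusted p under 0.05. Fgf8, the main FGF ligand of the tailbud, read 189 and 107 in the Dnmt3l-/+ pools, against 542 in the normal pool (-1.71, SE 0.38). The ligand genes Fgf17 (-1.45), Fgf18 (-1.35) and Fgf3 (-1.09) were next, while the ligand gene Fgf4 had 0.08. Fgf18 was dim in the mutants (67.1 and 64.3, against 216 in the normal pool) and was kept only through its normal signal. Among response genes, Spry2 (-0.40) and Dusp6 (-0.38) lay near the list median and Spry4 (-0.10) and Etv5 (-0.10) nearer 0. Replicate 2 was the lower mutant pool for 11 of the 13, against 45.3% of all genes kept. By at least 2-fold this held for Etv4, an FGF response gene, at 465 and 194 in the Dnmt3l-/+ pools and 447 in the normal pool.

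Primitive streak genes had no common direction against the normal pool. Of 9 kept, of 12 measured, 3 read lower in both mutant pools, 1 read higher and 5 differed in sign, with a median of -0.18, and none passed limma (1 lower at an unadjusted p under 0.05). Tdgf1, a Nodal coreceptor gene, read 78.6 and 60.5 in the Dnmt3l-/+ pools, against 199 in the normal pool (-1.19, SE 0.36). The filter on dim probe sets kept Tdgf1 only through its signal in the normal pool. The even-skipped paralogue Evx2 had -0.41, Lhx1 -0.34 and Nodal 0.16. Between the mutant pools, replicate 2 was lower than replicate 1 for 9 of the 9, against 45.3% of all genes kept. The median difference was -0.33, smaller than in Cdx1 (-2.54), Evx1 (-1.67) and Cdx2 (-1.21), which had the same order. The one that was at least 2-fold lower in replicate 2 was Mixl1, a homeobox gene of the streak. It read 220 and 82.1 in the Dnmt3l-/+ pools and 182 in the normal pool. Several others also had low signals, where small differences are uncertain. Eomes read 138 and 103 in the mutants and 104 in the normal pool, and Cer1 159 and 122 in the mutants and 136 in the normal pool. Snai1 was brighter, at 556 and 402 in the mutants and 412 in the normal pool.

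Central and posterior Hox genes, many of which Cdx proteins activate, were less uniform. Of 17 kept, of 23 measured, 10 read lower in both mutant pools and 5 higher, with a median of -0.31 that was -0.10 without the filter on dim probe sets and -0.63 with a stricter one. None passed limma, and 5 were lower at an unadjusted p under 0.05. Hoxd9 (-0.96), Hoxa9 (-0.90), Hoxb9 (-0.89) and Hoxc6 (-0.80) were the lowest by the smaller of their decreases in both pools. Hoxa9 read 1010 and 1113 in the Dnmt3l-/+ pools, against 2004 in the normal pool. None of the 17 was at least 2-fold lower in replicate 2 than in replicate 1, and 7 (9 with median centring) were lower there at all.

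**Figure D4:**
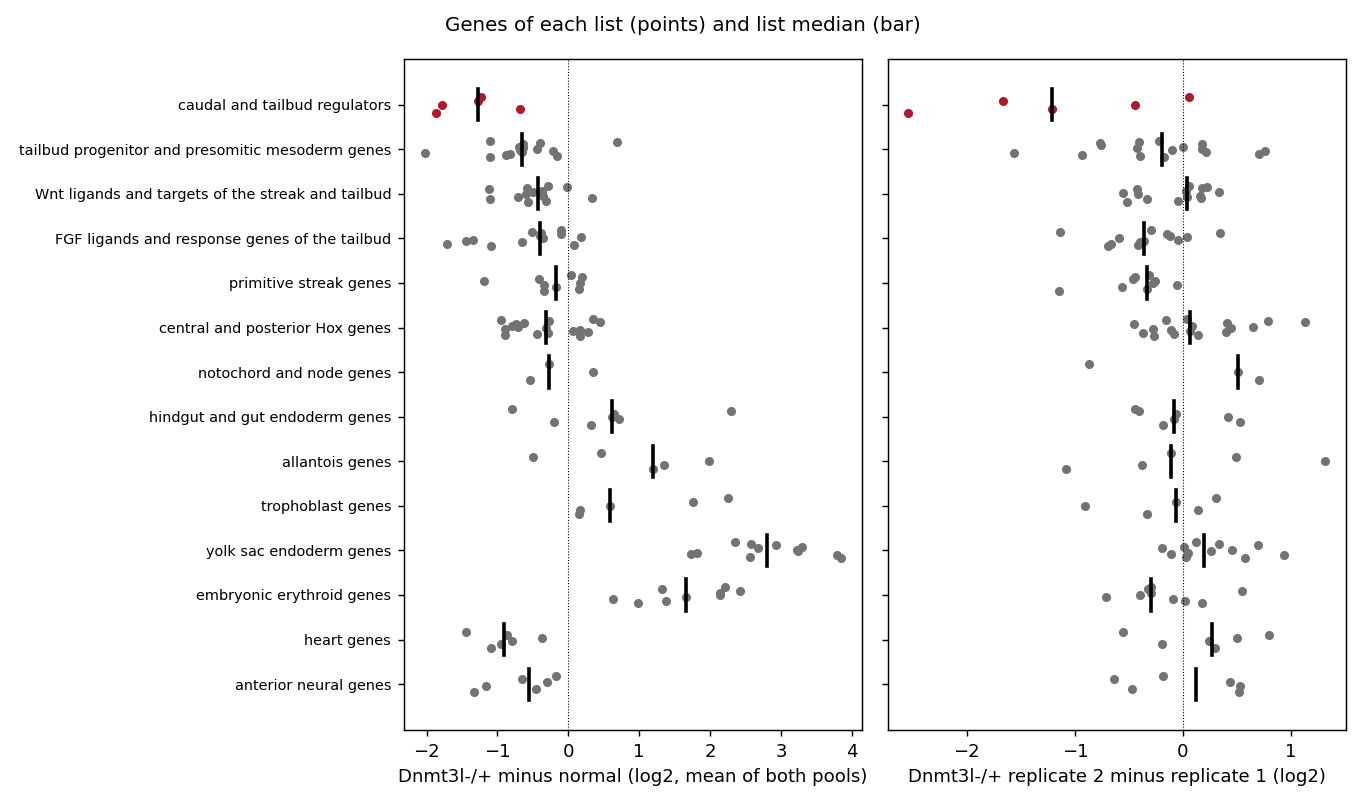
Log2 differences of single genes (points) and list medians (bars) for the tailbud regulators (red) and the companion lists (grey). The left panel shows Dnmt3l-/+ minus normal, where the regulators have a median of -1.28 and yolk sac endoderm genes 2.80, and the right panel shows replicate 2 minus replicate 1, where the regulators have a median of -1.21.

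Markers of extraembryonic and other tissues differed in the same arrays. Medians and counts cover the genes kept, while summed signals cover all genes measured of a list (6 allantois, 7 trophoblast and 8 gut genes). In 12 of 12 yolk sac endoderm genes the signal rose and passed limma, against 0.728% of all genes kept that were called higher. Without the filter, or without the variance trend, limma called no probe set of the arrays higher. The median log2 ratio of these 12 genes was 2.80. Their summed signals were 97789 and 105822 in the Dnmt3l-/+ pools, against 18421 in the normal pool. Embryonic erythroid genes were higher in both mutant pools in 9 of 9 (36.5% of all genes kept), of which Hba-x and Slc4a1 passed (median 1.66, sums 69265 and 70167 in mutants against 34216 in the normal pool). Most of these sums came from the globin genes Hbb-y, Hba-x and Hbb-bh1. Their log2 ratios of 0.98, 1.37 and 0.62 lay below the list median. Allantois genes had a median of 1.20 with 4 of 5 kept genes higher in both pools and none passing (3 at an unadjusted p under 0.05), and sums of 4783 and 5257 in mutants against 1870 in the normal pool. Among them Tbx4 read 1089 and 496 in the mutants and 303 in the normal pool, Hand1 2233 and 1710 in the mutants and 750 in the normal pool, and Postn 1039 and 2626 in the mutants and 394 in the normal pool. The mutant pools thus ranked in opposite order for Tbx4 and Postn. Vcam1 was the 1 gene lower in both (142 and 213 in mutants, 261 in the normal pool). Trophoblast genes, listed because Cdx2 also serves there, had a median of 0.58 (1.04 in replicate 1 and 0.23 in replicate 2). Of these 4 of 5 were higher in both pools, and sums were 3499 and 3210 in mutants against 1310 in the normal pool. Esx1 passed (log2 ratio 2.25, SE 0.28). The others had 1.76 (Plac1), 0.58 (Tfap2c), 0.16 (Esrrb) and 0.15 (Eomes, which differed in sign between the mutant pools). Hindgut and gut endoderm genes had a median of 0.61, with 5 of 7 higher in both pools (36.5% of all genes kept). Their sums were 20247 and 17621 in mutants against 8141 in the normal pool. Most of the mutant sums came from Spink1, which passed (2.30, SE 0.21). It read 12597 and 9505 in the mutants and 2194 in the normal pool. Nepn was the 1 kept gene lower in both pools, at 538 and 386 in mutants against 812 in the normal pool (-0.79, SE 0.30). Foxa1 differed in sign between the mutant pools. Trh, which was too dim to be kept, read 27.2 and 48.9 in mutants against 111 in the normal pool. Whether the signal of the gut list came from gut or from yolk sac endoderm was not tested. Of 3 notochord and node genes kept, of 5 measured, Foxa2 had 0.35, Chrd -0.28 and Shh -0.54, with list sums of 1563 and 2183 in mutants against 2047 in the normal pool.

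Other tissues of the embryo proper also read lower. Heart genes did so in both mutant pools in 6 of 6 (median -0.90, sums 14891 and 19920 in mutants against 27314 in the normal pool), and anterior neural genes in 6 of 6 (5 under each other scaling, median -0.56, sums 1666 and 1866 in mutants against 3108 in the normal pool). None of the 12 passed limma, with 4 and 2 lower at an unadjusted p under 0.05. These tissues lie away from the tailbud. Between the mutant pools the median difference, replicate 2 minus replicate 1, was 0.27 for heart and 0.12 for anterior neural genes. For the caudal regulators it was -1.21, from Cdx1 (-2.54), Evx1 (-1.67), Cdx2 (-1.21), Cdx4 (-0.45) and Sp5 (0.06). The lists of genes that work beside them had medians nearer 0. These were -0.20 for tailbud progenitor and presomitic mesoderm, 0.03 for Wnt, -0.36 for FGF, -0.33 for primitive streak and 0.06 for Hox genes. No listed marker read 0 on any array, but some signals lay far under the pseudocount of 31.92. Hoxb13, which was not kept, read 4.36 and 2.23 in the mutants and 2.42 in the normal pool. A signal above 0 thus does not show that a tissue was present. The part of tissue makeup in the members' values was not tested.

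The genes with the pair of ratios most like that of Cdx4 were Fgf8, Fut10 and Ctla2a, at distances of 0.19, 0.20 and 0.23 on the log2 scale over 2 ratios. These 3 were the only genes within 0.25 of Cdx4. For Sp5 the nearest were Cdh6, Trpc2 and Plekho1, at 0.07, 0.08 and 0.12, and 32 genes lay within 0.25. With 3 arrays such likeness is a description of these pools only.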

How the data were processed

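Trizol RNA was turned into biotin-labelled cRNA, per the labels' protocols. The deposited values are linear signal intensities of probe sets, made with GCOS and MAS5 per the submitters' processing notes, with no versions or settings given. Every array's mean was 500 once 2% of values at either end had been trimmed, so signals are relative to the rest of their array. More signal from one tissue could thus lower that of others, which was not tested. Array medians were 130 to 144. After leaving out 64 controls, 34945 of 45037 probe sets had 1 gene symbol, 932 had several (used for no gene) and 9160 were unnamed. The RefSeq gene table (GRCm38.p6) changed 0 symbols.

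Values were log2(signal + 31.92). Probe sets at or above the 40th percentile of the mean of both group means were kept (27022, or 12913 genes at their brightest probe set). Limma (3.58.1, R 4.3.3) used lmFit and eBayes with a variance trend, two-sided, Benjamini-Hochberg over probe sets kept, with 1 residual and 4.52 prior degrees of freedom. The labels call the mutant arrays biological replicates. The fit was tested on simulated data. Named companion genes were up to 4 per list by the smaller of both ratios, same sign, plus any that passed, and likeness was the distance between pairs of ratios for the 2 members with the largest such ratio. Genes beyond this rule were added for their role or after their values were seen. Members and lists were chosen with earlier results of these data known. Promoters are RefSeq's. Pseudocount, filter, scaling, variance trend, floor, probe set averaging and leaving out a mutant pool were varied.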

Additional observations from a re-analysis of the deposited data

How the results depend on the processing

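The combined log2 ratios of all 5 members stayed below 0 under every setting tried. With 1 mutant pool left out, which leaves no spread to test, Cdx1 ranged from -3.14 to -0.59, Cdx2 from -1.29 to -0.08, Evx1 from -2.11 to -0.45, Cdx4 from -2.01 to -1.56 and Sp5 from -1.26 to -1.20. The count of members at least 2-fold lower was then 5 without Dnmt3l-/+ replicate 1 and 2 without replicate 2. Over the other settings Cdx1 ranged from -2.41 to -1.57, since its signal in replicate 2 lay under the pseudocount. The mean of its probe sets gave Cdx2 -1.15. Cdx4 passed with the probe sets averaged per gene (log2 ratio -1.78, limma adjusted p = 0.0246), and Sp5 did not (0.0553). The members lower in both pools were 4 with median centring and 5 otherwise. List medians moved too over the settings that used both mutant pools. The trophoblast median ranged from 0.55 to 1.23 and the FGF median from -0.65 to -0.33. Primitive streak genes ranged from -0.37 to 0.19 and notochord and node genes from -0.38 to 0.26, so both medians changed sign. Yolk sac endoderm genes ranged only from 2.72 to 2.94. Limma called 148 probe sets higher and 8 lower, 263 and 24 with median centring, and 0 and 0 both without the filter and without the variance trend, where 2423 and 2451, and 1641 and 1814, had an unadjusted p under 0.05. At that p the split was 1811 higher and 1853 lower as reported and 2185 and 1457 with median centring. The cause was not tested. No paired analysis was possible because the normal group is 1 array. The normal pool has no replicate, and the number of arrays and signals near background (Cdx1 and the dimmer Cdx2 probe set in replicate 2) limit the precision.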
